A study of Mus musculus with 24 samples.

Results

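The comparison described here is that of brain microglia after 6 weeks of recovery on normal diet with microglia at the end of cuprizone feeding, in mice without Cre recombinase. Its members are the 6 libraries, of 24 in the series, that the labels give as Cx3cr1 Cre- and either demyelination or remyelination with tamoxifen at the start, 3 in each state. They were chosen from the labels and not from measured values.

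The series asks what loss of Dicer1 does to adult mouse microglia, and crosses genotype (Cre- or Cre+) with 4 states, 3 libraries in each of 8 groups. Cre+ mice carried creERT2, a recombinase that tamoxifen activates, at the Cx3cr1 locus. The Cre- mice lacked it, are called wild type in the series text, and received tamoxifen as well. Demyelination was 6 weeks of cuprizone, and remyelination was 6 weeks of cuprizone followed by 6 weeks of normal diet. In both Cre- groups compared here tamoxifen was given at 4 to 5 weeks. A further Cre- group with the same diets received it in week 5 of cuprizone (the peak group), and the naive Cre- group had tamoxifen and no cuprizone. All cells were sorted as CD45-intermediate and CD11b-positive, a gate that is commonly used to separate microglia from border macrophages, monocytes and neutrophils, which have higher CD45. The series text calls the 3 samples of a group biological replicates, but the labels do not number the animals, and the p-values speak only of the spread among the deposited libraries. Diet state coincides with the animals' time on the experiment, with the time since tamoxifen and with sequencing depth: the 12 remyelination libraries of the series held 8.87 M to 12.56 M counts (M stands for 1000000) and the 12 naive and demyelination libraries 19.48 M to 44.53 M. These cannot be told apart here. On the axis of largest variance (43.4%), the 12 remyelination libraries lay at -40.57 to -22.97. The 12 naive and demyelination libraries lay at 28.24 to 39.86, so comparisons of remyelination with naive cross the same divide.

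Cuprizone is a copper chelator that kills oligodendrocytes, the cells that make myelin, and the loss is greatest in the corpus callosum. Microglia take up the myelin debris and switch to a damage-associated programme of lipid-handling, lysosomal and secreted genes that depends on the receptor Trem2. When cuprizone is withdrawn, oligodendrocyte precursors mature and rebuild myelin, and microglia move back towards a homeostatic state that is held in place by TGF-beta signalling and the transcription factor Sall1.

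In the comparison the demyelination libraries held 21.87 M to 24.16 M counts and the remyelination libraries 8.87 M to 10.65 M. The 50 most abundant genes took 28.6 to 30% of counts in demyelination and 20.8 to 21.6% in remyelination. Levels below are counts per M counts (CPM) on library sizes scaled by TMM, a method that assumes that most genes do not change. The microglial markers were present in all 6 libraries: P2ry12 stood at 3421 to 4953 CPM, Tmem119 at 1492 to 3003 CPM and Csf1r at 8253 to 13340 CPM. Cx3cr1, the gene that carries the Cre insertion in Cre+ mice, stood at 5277, 5318 and 6139 CPM in demyelination and at 7369, 6510 and 7932 CPM in remyelination, without overlap. Its log2 change was 0.38 ± 0.94 (adjusted p = 0.752) in the fit of all 24 libraries, whose spread for this gene includes 3 Cre+ libraries with Cx3cr1 at 1.607 to 2.182% of the Cre- mean. Without these 3 libraries the change was 0.39 (adjusted p = 0.00547), and with only the 6 libraries compared 0.44 (adjusted p = 0.0027). In bulk RNA, a fall through fewer cells of a type cannot be told apart from a fall through less RNA per cell.

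Of 17579 genes tested by edgeR, 9609 passed an adjusted p of 0.05, which is 54.7%. Of these, 4628 (26.3% of genes tested) were higher and 4981 (28.3%) lower in remyelination. A log2 change of at least 1 was reached by 2529 of the higher genes (14.4%) and 1792 of the lower genes (10.2%). The median log2 change of all tested genes was 0.06, with quartiles of -0.54 and 0.74. The split depended on the scaling: higher genes were 48.2% of those called with TMM and 74.5% with library totals alone, when the median moved to 0.48. With library totals alone, 44.5% of genes tested were called higher and 15.2% lower. Changes are therefore read against these shares, which include genes of low count. Among the 10738 genes with a mean log2 CPM of at least 2, 25.4% were higher and 40.8% lower with TMM. Their median was -0.15, and 7.35% were higher and 12.1% lower by a log2 of 1 or more. Below, "rose" and "fell" mean past the adjusted p of 0.05, ± is the standard error of the log2 change between groups of 3 libraries, with the spread pooled over all 24 libraries, adjusted p values are from edgeR's quasi-likelihood test with Benjamini-Hochberg adjustment, and every change is remyelination minus demyelination unless another comparison is named.

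Where a list is said to have no member called in a direction, none passed edgeR at an unadjusted p of 0.05 or the DESeq2 Wald test either, except where values are given. With 1 library left out, 1 member was called in such a direction for the interferon response (without demyelination replicate 2), for MHC class I and lipid efflux and storage (each without demyelination replicate 1) and for neuron markers (without demyelination replicate 3).

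The damage-associated microglia genes fell almost as a whole. Of 29 tested members, 28 fell, 27 of them by a log2 of 1 or more, and none rose, against 28.3% of all tested genes called lower. The list's median was -2.84, beside 0.06 for all tested genes. In each of the 29, every remyelination library lay below every demyelination library. That holds for 32.9% of all tested genes. The count lower was also 28 with library totals alone and with the length and GC offsets described below.

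Spp1 (ENSMUSG00000029304, chromosome 5, 104435118 to 104441050, GRCm38), which encodes the secreted phosphoprotein osteopontin, stood at 5358, 5594 and 3178 CPM in demyelination and at 112, 188 and 110.1 CPM in remyelination. Its log2 change was -5.11 ± 0.32 (adjusted p = 4.24e-10). The remyelination libraries were far below those of demyelination and still above the naive libraries, which held 10.7, 8.4 and 10.6 CPM. Apoe, the main lipid carrier protein of the brain, was at 57570, 61770 and 45250 CPM in demyelination and 4941, 7824 and 4829 CPM in remyelination. It fell by 3.23 ± 0.23 (adjusted p = 3.58e-10). Lpl, a lipase that frees fatty acids from lipoproteins, went from 2468, 2556 and 1860 to 106, 163 and 119.9 CPM, a log2 change of -4.14 ± 0.21 (adjusted p = 2.08e-12). The groups did not overlap for any of these genes, and demyelination replicate 3 had the lowest value of its group in each.

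Cst7, which encodes the protease inhibitor cystatin F, stood at 1093, 1136 and 743 CPM and then at 30.7, 56.9 and 31.5 CPM, a log2 change of -4.64 ± 0.25 (adjusted p = 2.07e-11). Igf1, a growth factor for oligodendrocytes, was at 358, 351 and 256 CPM and then at 20.2, 29.9 and 19.2 CPM, a log2 change of -3.80 ± 0.24 (adjusted p = 1.75e-10). Remyelination replicate 2 was the highest of its group for Spp1, Apoe, Lpl, Cst7 and Igf1, and remained several-fold below the lowest demyelination library. Further falls were -3.27 for Gpnmb, -3.41 for Lgals3, which encodes galectin-3, -2.84 for Itgax, the integrin CD11c, and -2.999 for Clec7a, a beta-glucan receptor. The smallest called fall was that of Trem2 itself, from 2307, 2330 and 2069 to 1122, 1171 and 1091 CPM, a log2 change of -0.99 ± 0.09 (adjusted p = 4.51e-10). Timp2, an inhibitor of matrix proteases, did not pass the test: it was at 1623, 1503 and 911 CPM in demyelination and 807, 856 and 849.7 CPM in remyelination, and the low value of demyelination replicate 3 lay near the remyelination values.

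**Figure D1:**
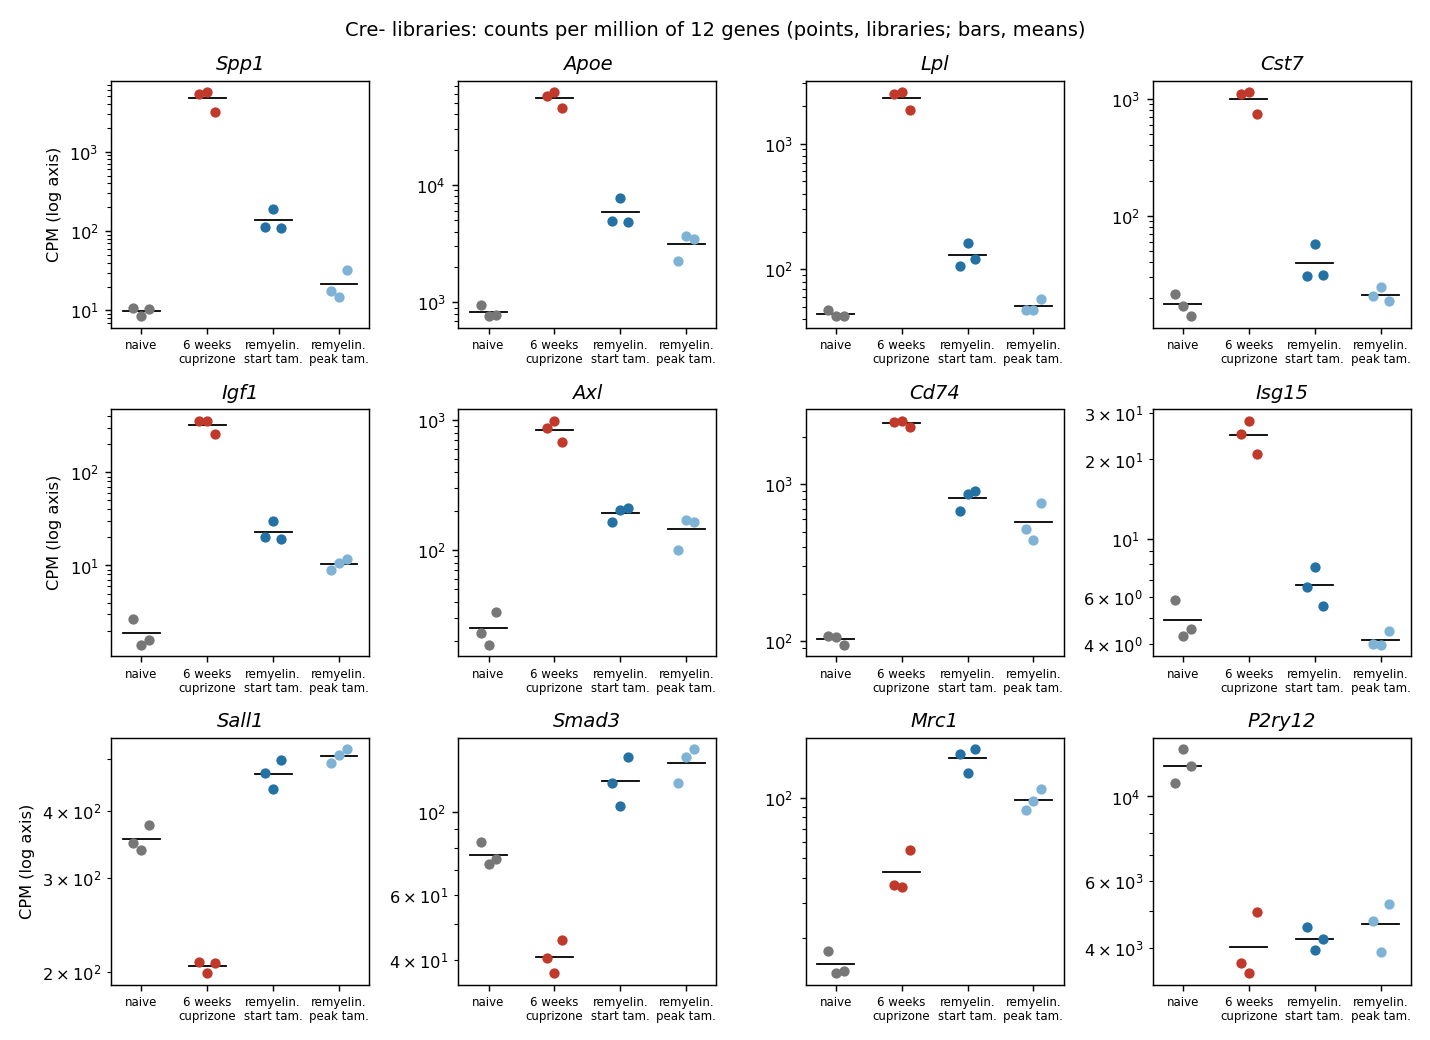
CPM on a log axis for 12 genes in the 12 Cre- libraries: naive, 6 weeks of cuprizone, and remyelination with tamoxifen at the start or at the peak. Points are libraries and bars are group means. Spp1 lies at 3178 to 5594 CPM in the demyelination libraries and at 110.1 to 188.4 CPM in the start-tamoxifen remyelination libraries, while Sall1, Smad3 and Mrc1 lie higher in remyelination than in demyelination.

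Return to the naive level differed between members. Against the naive Cre- libraries, which share the remyelination libraries with the comparison above, 17 of the 29 genes were higher in remyelination and 7 lower, with a median of 1.41. Across all tested genes, 28.8% were higher than naive and 27.4% lower. Igf1 stood 3.70 above naive on the log2 scale (adjusted p = 4.75e-09), Gpnmb 5.29 and Apoe 2.82. Cd9, a tetraspanin, had a log2 difference from naive of -0.69 (adjusted p = 6.6e-06), the cathepsin Ctsl of -0.75 and Trem2 of -0.69.

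Lipid-handling genes fell too, in a list that includes Apoe, which was described above. Of 23 tested genes of lipid efflux and storage, 13 fell, beside 28.3% of all genes, with a median of -0.88. None rose by edgeR, 1 was higher at an unadjusted p of 0.05, and DESeq2 called 2 higher. Apoc1, an apolipoprotein encoded beside Apoe, stood at 149.5, 188 and 83.2 CPM in demyelination and at 1.47, 3.2 and 0.923 CPM in remyelination, a log2 change of -6.23 ± 0.60 (adjusted p = 1.42e-07). Its neighbour Apoc4 went from 51.2, 51.1 and 28 to 0.196, 1.6 and 0.587 CPM. Ch25h, which makes 25-hydroxycholesterol, fell by 4.41 (adjusted p = 2.99e-11) and Plin2, a coat protein of lipid droplets, by 2.38 (adjusted p = 1.27e-12). The cholesterol exporter Abcg1 fell from 224, 219.9 and 181 to 88.4, 99.8 and 105 CPM. Its relative Abca1 did not pass the test, at 964, 916 and 745 CPM and then 589.7, 461 and 754 CPM, nor did the lysosomal cholesterol transporter Npc1.

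Cholesterol synthesis did not move as a unit. Of 24 tested enzymes and regulators, 10 fell and 5 rose, beside a background of 28.3% and 26.3%, and with library totals alone 2 fell and 11 rose. The number that rose was 3 without demyelination replicate 1 or remyelination replicate 1 and 2 without remyelination replicate 3. Ebp, a sterol isomerase, fell by 0.93 (adjusted p = 1.11e-08) and Msmo1, a sterol oxidase, by 0.57 (adjusted p = 0.000237), a call that library totals did not give (adjusted p = 0.328). Srebf2, which encodes the pathway's transcription factor, changed by 0.50 ± 0.16 (adjusted p = 0.00918). With the length and GC offsets the counts were 2 higher and 6 lower, beside 24.5% of all genes higher and 28% lower with them, and Srebf2 no longer passed (adjusted p = 0.537).

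Secreted growth and repair factors fell more often than they rose, with a median of -0.45. Of 20 tested, 10 were lower and 3 higher, beside 28.3% and 26.3% of all genes. Beside Spp1 and Igf1, the fallers included the elastase Mmp12, the matrix protein Postn and Csf1, a growth factor of microglia. Postn stood at 270.2, 263 and 220.2 CPM and then at 18.1, 24.4 and 24.2 CPM, close to the naive values of 18.9, 24.1 and 23.6 CPM. The 3 genes that rose were Tgfb1, Pdgfb and Thbs1, by 0.77, 0.67 and 0.69, and with the offsets 1 gene of the list rose.

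Interferon-response genes fell together. Of 30 tested members, 25 fell and none rose, beside 28.3% and 26.3% of all genes, with a median of -1.86. With library totals alone 24 fell and 2 rose, beside 15.2% and 44.5% of all genes. Ifi27l2a went from 199, 228 and 119.6 to 22, 23.5 and 20.1 CPM, a log2 change of -3.06 ± 0.31 (adjusted p = 1.94e-07). Ifi207, a member of the Ifi200 family of DNA-binding proteins, went from 113, 117 and 80.5 to 16.5, 18.9 and 21.8 CPM, a log2 change of -2.44 ± 0.16 (adjusted p = 1.07e-11). Oas1a, an oligoadenylate synthetase that senses double-stranded RNA, stood at 82.5, 94.6 and 57 CPM and then at 14.9, 13.6 and 17.2 CPM. The groups did not overlap for any of these, and demyelination replicate 3 was again the lowest of its group.

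Among the transcription factors of the response, Irf7 fell by 1.92 (adjusted p = 7.77e-07) and Stat2 by 0.46 (adjusted p = 0.00228). The RNA sensors Ifih1 and Ddx58, the synthetases Oas2 and Oas3, and Parp14 did not pass the test. Compared with naive, 18 of the 30 genes were higher in remyelination, with a median of 0.72. None was lower by edgeR or DESeq2, and 2 were lower at an unadjusted p of 0.05. Ifit3 and its near-identical copy could share reads, so its value is uncertain.

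The interferon-stimulated response element is the known binding site of STAT and IRF complexes. Its core, spelled GAAA, any 2 bases and GAAA again, was searched on either strand in the RefSeq promoters (GRCm38.p6), each holding 250 bases before to 50 bases after the start. Of the 20 list members with a promoter in that table, 14 held it, or 70.0%, beside 3.99% of 27025 genes with a promoter. The 250 bases before the start of Ifi207, Oas1a and Isg15 are shown because these genes fell together. Capitals mark the matches, which overlap in Oas1a and Isg15. A match is a description of the letters and not a measured site.
Ifi207, chr1:173741810-173742059, minus strand: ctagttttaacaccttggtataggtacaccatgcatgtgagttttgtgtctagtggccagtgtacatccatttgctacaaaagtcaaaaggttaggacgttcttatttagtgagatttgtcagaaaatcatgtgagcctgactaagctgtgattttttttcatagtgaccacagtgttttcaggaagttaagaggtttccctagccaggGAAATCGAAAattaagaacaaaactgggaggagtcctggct
Oas1a, chr5:120907526-120907775, minus strand: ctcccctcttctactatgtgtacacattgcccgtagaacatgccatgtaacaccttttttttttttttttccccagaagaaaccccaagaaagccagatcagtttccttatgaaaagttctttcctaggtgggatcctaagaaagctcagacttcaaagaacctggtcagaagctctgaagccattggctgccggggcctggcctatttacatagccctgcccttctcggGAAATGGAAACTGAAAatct
Isg15, chr4:156200819-156201068, minus strand: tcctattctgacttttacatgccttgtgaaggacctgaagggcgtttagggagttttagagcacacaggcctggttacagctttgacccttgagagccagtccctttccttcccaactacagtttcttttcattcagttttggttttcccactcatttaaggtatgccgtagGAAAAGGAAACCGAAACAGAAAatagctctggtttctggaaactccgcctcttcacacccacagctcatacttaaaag
In Ifi207 the match begins 41 bases before the start, in Oas1a the matches begin 20 and 14 bases before it, and in Isg15 they begin 78, 72 and 66 bases before it. Isg15, a ubiquitin-like modifier, fell from 25, 28.1 and 21 to 6.58, 7.82 and 5.54 CPM, a log2 change of -1.89 ± 0.20 (adjusted p = 9.71e-09).

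Antigen-presentation genes fell too. Of 10 tested MHC class II genes, 8 fell, with a median of -0.92. Cd74, the invariant chain, was at 2502, 2541 and 2311 CPM and then at 679, 871 and 906 CPM, a log2 change of -1.58 ± 0.21 (adjusted p = 2.31e-06). It lay 2.99 above naive on the log2 scale (adjusted p = 2.26e-09), and H2-Aa, a class II chain, lay above naive as well (adjusted p = 2.04e-07). The list split against naive, with 5 of the 10 genes higher in remyelination and 4 lower. Among the lower were H2-DMb1 (-0.617), H2-DMa (-0.422) and H2-Oa (-0.685). Ciita, the master regulator of class II genes, was at 3.62, 4.98 and 5.2 CPM and then at 4.42, 3.91 and 6.63 CPM, and did not pass the test. Of 14 class I genes, 11 fell and none rose, with a median of -1.03. B2m, the light chain of class I molecules, went from 10470, 10400 and 7960 to 2475, 2808 and 2041 CPM, a log2 change of -1.98 ± 0.18 (adjusted p = 5.76e-09). Class I genes have near-identical copies and their values are uncertain.

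Cytokine and chemokine genes fell in 14 of 19 cases, with a median of -1.28. Ccl5 changed by -2.64 ± 0.29 (adjusted p = 1.85e-08), Tnf by -1.87 ± 0.26 (adjusted p = 5.48e-06) and Ccl4 by -1.61 ± 0.25 (adjusted p = 2.76e-05). Il1b, a cytokine released by the inflammasome, stood at 365, 342 and 228 CPM in demyelination and at 91, 202 and 94 CPM in remyelination, a log2 change of -1.27 ± 0.29 (adjusted p = 0.00133) that was -0.67 with the offsets (adjusted p = 0.0518). Its remyelination values, the highest of which was in replicate 2, all lay above the naive values of 12.1, 7.84 and 8.08 CPM. Tgfb1 and Nlrp3, an inflammasome sensor, rose. With length and GC offsets the number of fallers was 8 instead of 14, and Il1a and Ccl2 were among those no longer called (adjusted p = 0.747 and 0.585).

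Immediate early and dissociation genes, which tissue handling can induce, went both ways, with a median of -0.35. Of 24, 12 were lower and 6 higher, beside 28.3% and 26.3% of all genes. With library totals alone 5 were lower and 11 higher, beside 15.2% and 44.5% of all genes. Atf3 fell from 708, 753 and 693 to 172, 373 and 185 CPM. Rhob, a small GTPase, rose from 136, 138 and 158 to 418, 551 and 446 CPM, a log2 change of 1.71 ± 0.16 (adjusted p = 2.33e-09), and Klf2 rose by 1.62. Fos stood at 696, 762 and 762 CPM and then at 311, 699 and 436 CPM. Remyelination replicate 2 had the highest Fos, Atf3, Klf2 and Rhob of its group, and their part in the cytokine values was not tested.

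Proliferation genes fell. Of 30 cell-cycle genes, 22 fell and none rose, with a median of -1.32. Cdk1, the kinase that drives entry into mitosis, was at 23.9, 23.4 and 21.8 CPM and then at 3.24, 2.85 and 4.7 CPM, a log2 change of -2.67 ± 0.24 (adjusted p = 1.08e-09). Pcna, the DNA polymerase clamp, was at 118, 112 and 107 CPM and then at 40.1, 48 and 37.2 CPM, a log2 change of -1.43 ± 0.11 (adjusted p = 3.76e-11). The groups did not overlap for either gene, and both lay below naive after recovery (adjusted p = 0.0416 and 2.76e-05). Mki67 did not pass the test, at 7.18, 6.42 and 7.95 CPM and then 4.12, 7.2 and 6.63 CPM. Promoters of mitotic genes are known for the CHR element TTTGAA. It was present on either strand in 12 of 25 list members with a promoter (48.0%), beside 20.2% of all genes with one. Cdk1 is shown with its matches, 71 and 15 bases before the start, in capitals.
Cdk1, chr10:69352913-69353162, minus strand: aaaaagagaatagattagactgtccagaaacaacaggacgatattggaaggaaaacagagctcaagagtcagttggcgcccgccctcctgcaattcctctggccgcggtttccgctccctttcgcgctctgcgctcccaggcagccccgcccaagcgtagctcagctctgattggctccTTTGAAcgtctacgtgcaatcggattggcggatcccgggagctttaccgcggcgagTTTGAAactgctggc

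Lysosomal genes fell in 23 of 38 cases and rose in 1, beside 28.3% and 26.3% of all genes, with a median of -0.66. With library totals alone 19 fell and 11 rose, beside 15.2% and 44.5% of all genes. Of the 10 cathepsins tested, 8 fell, Ctsf did not pass the test and Ctsk rose: Ctsl changed by -1.87 ± 0.14 (adjusted p = 5.93e-11), Ctsb by -1.62 ± 0.10 (adjusted p = 3.77e-12), Ctsz by -1.51 ± 0.11 (adjusted p = 4.47e-11) and Ctsd by -1.14 ± 0.09 (adjusted p = 2.07e-10). Ctsb, a cysteine protease, was at 14390, 14420 and 12020 CPM and then at 4150, 4661 and 4476 CPM. The groups did not overlap. Tfeb, the factor that activates lysosomal genes, did not pass (adjusted p = 0.209), and Ctsk, the 1 gene of the list that rose, was at 0.384, 0 and 0.0473 CPM and then 1.08, 0.622 and 0.503 CPM. With the offsets 32 of the 38 genes fell, Tfeb among them at -0.76 (adjusted p = 8.7e-06). In remyelination 24 of the 38 genes lay below naive and 2 above. The sequence CACGTG, which is its own reverse complement and is contained in the element that TFEB binds, was found in 12 of 31 promoters of the list (38.7%), beside 8.09% of all genes with a promoter. Ctsd is shown, with matches 245 and 98 bases before the start.
Ctsd, chr7:142387828-142388077, minus strand: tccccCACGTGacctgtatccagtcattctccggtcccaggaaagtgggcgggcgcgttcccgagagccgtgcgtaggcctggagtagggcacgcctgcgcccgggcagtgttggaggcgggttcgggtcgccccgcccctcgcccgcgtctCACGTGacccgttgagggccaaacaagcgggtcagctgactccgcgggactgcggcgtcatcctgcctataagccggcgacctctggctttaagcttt

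Phagocytosis receptors and complement genes split. Of 30, 19 fell and 8 rose, beside 28.3% and 26.3% of all genes, with a median of -0.75. The complement genes C1qa, C1qb and C1qc fell by 0.75, 0.98 and 1.06, and the Fc receptor Fcgr3 fell by 1.35 (adjusted p = 2.21e-11). Axl, a receptor that binds apoptotic cells through Gas6, fell from 864, 990.2 and 682 to 164, 203 and 212 CPM, whereas its relative Mertk rose from 515, 528 and 588 to 802, 789 and 973 CPM, a log2 change of 0.65 ± 0.11 (adjusted p = 1.12e-05). Stab1, a scavenger receptor, rose from 165, 186 and 218 to 596, 503 and 688 CPM, a log2 change of 1.65 ± 0.13 (adjusted p = 1.07e-10), and Lrp1, an endocytic receptor that binds Apoe, from 515, 528 and 495 to 989, 1016 and 1107 CPM. With length and GC offsets the change of Lrp1 was 0.07 and not called (adjusted p = 0.464). Itgb5 was at 1506, 1167 and 559 CPM in demyelination, a wide spread, and at 2130, 1929 and 2458 CPM in remyelination, and did not pass.

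Metabolic genes fell broadly. All 34 tested cytosolic ribosomal protein genes fell, with changes of -1.73 to -0.88 and a median of -1.32. All 29 nuclear genes of the respiratory chain fell, with a median of -1.09. Of 22 genes of glycolysis and hypoxia, 17 fell and 4 rose, with a median of -1.16. The number that rose was 0 with the length and GC offsets described below, and 2 without demyelination replicate 1, demyelination replicate 2 or remyelination replicate 2. Ldha, lactate dehydrogenase, was at 781, 814 and 722 CPM and then at 220.5, 257 and 236 CPM, a log2 change of -1.70 ± 0.09 (adjusted p = 2.93e-13). Gapdh changed by -1.61 ± 0.13 (adjusted p = 8.58e-11) and Uqcrb, a subunit of complex III, by -1.81 ± 0.15 (adjusted p = 7.2e-10). For ribosomal genes, remyelination lay at the naive level, with a median difference of 0.01. Of the 29 nuclear respiratory chain genes, 23 lay below naive and none above, with a median of -0.55. Of the 22 genes of glycolysis and hypoxia, 7 lay below naive and 5 above.

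Short genes fell more than long ones across the whole table, which touches these groups. Among genes with a mean log2 CPM of at least 2, the median change was -0.85 in the decile with the shortest transcripts (median length 1263 bases) and 0.36 in the decile with the longest (12540 bases). With per-library offsets for length and GC content these medians were -0.41 and -0.08. With the offsets, the medians were -1.005 for ribosomal genes, of which all 34 fell, and -0.68 for the nuclear respiratory chain, of which 28 of 29 fell. They were -2.47 for the damage-associated genes and -1.53 for the interferon response. Of the genes called without offsets, 3433 of 4628 higher and 4024 of 4981 lower were called the same way with them, while 33 and 3 were called the other way. Across all genes with a known length, Spearman's rho of the change with length was 0.161, and -0.09 with the offsets. From the shortest to the longest decile, the medians ran from -0.44 to 0.29 for remyelination minus naive. They ran from 0.37 to -0.05 for demyelination minus naive. Whether the trend with length belongs to the diet state or to how its libraries were made cannot be told apart here.

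**Figure D2:**
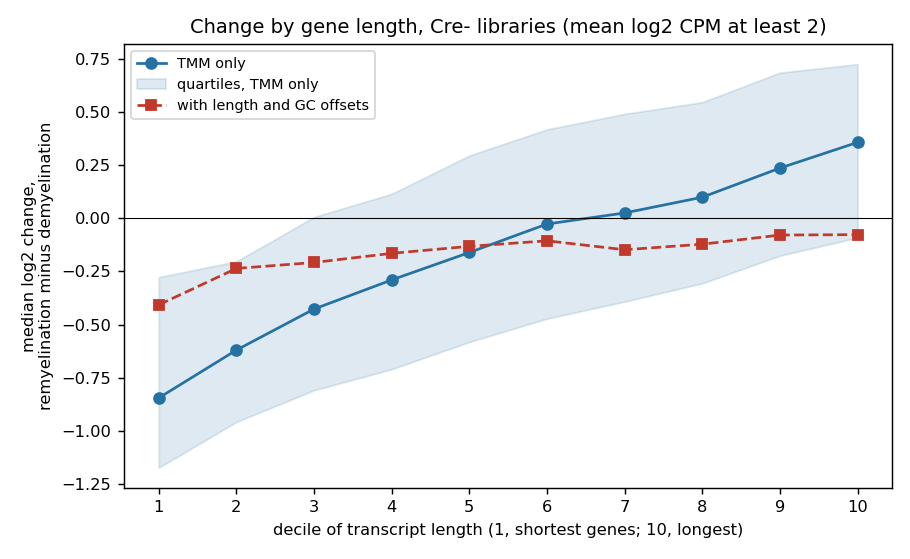
Median log2 change of genes by decile of transcript length, from shortest to longest, for genes with a mean log2 CPM of at least 2. Circles use TMM only, with quartiles shaded, and squares add offsets for length and GC content. The medians run from -0.85 to 0.36 with TMM only and from -0.41 to -0.08 with the offsets.

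Stress pathways were mixed. Of 19 genes of the integrated stress response, 11 fell and 2 rose, beside 28.3% and 26.3% of all genes. Asns, asparagine synthetase, changed by -2.63 ± 0.39 (adjusted p = 9.07e-06), and the regulator Atf4 by -0.68 ± 0.13 (adjusted p = 6e-05). Of 16 heat shock chaperones, 8 fell and 4 rose, beside the same shares. With library totals alone 5 fell and 8 rose, beside 15.2% and 44.5% of all genes. Hspa1a and Hspa1b, inducible Hsp70 genes with near-identical copies of each other, rose: Hspa1b went from 98, 125 and 131 to 825, 852 and 834 CPM, a log2 change of 2.83 ± 0.32 (adjusted p = 6.33e-07). Naive values were 257, 196 and 261 CPM. Iron and metal handling was mixed too, with 11 lower and 6 higher of 22, beside 28.3% and 26.3% of all genes. With library totals 9 were lower and 10 higher, beside 15.2% and 44.5%, and 3 were higher without remyelination replicate 1. The ferritin heavy chain Fth1 fell from 6393, 6510 and 5137 to 1327, 1870 and 1316 CPM, while the iron exporter Slc40a1 rose from 139.9, 137 and 182 to 263, 230.1 and 273 CPM.

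The mitochondrial transcripts did not move alike. Of 13 tested, 7 fell by 0.74 to 1.49, such as mt-Cytb, which went from 3025, 2694 and 2647 to 1177, 1284 and 1010 CPM. In contrast, mt-Co2 went from 0.713, 0.664 and 0.52 to 21.8, 30.7 and 23.1 CPM, a log2 change of 5.31 ± 0.23 (adjusted p = 3.07e-15), and mt-Co3 and mt-Atp6 rose by 4.98 and 4.87. The 5 genes that rose lie on the mitochondrial genome between positions 7013 and 10173. Within that stretch mt-Nd3 (9459 to 9806) did not pass, at -0.14 (adjusted p = 0.746). Nuclear genomes carry copies of mitochondrial DNA, and 7 pseudogenes annotated on chromosome 1 between 24611535 and 24616197 all rose as well, by 1.53 to 5.36. Reads of near-identical sequences can be assigned to either place, so these values are uncertain, and the cause of the pattern was not tested. In the peak group mt-Co2 was at 29.2, 34.5 and 24.1 CPM and in the naive group at 0.439, 0.451 and 0.198 CPM.

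Genes of TGF-beta signalling rose. Of 20 tested, 14 rose and none fell, against 26.3% of all tested genes called higher, and the median was 0.77. Against naive, 13 of the 20 were higher in remyelination and 2 lower, with a median of 0.57. In demyelination 2 were higher than naive and 9 lower, with a median of -0.29. Smad3, a transducer of the signal, was at 40.4, 36.8 and 45.3 CPM and then at 120.0, 104 and 141 CPM, a log2 change of 1.58 ± 0.11 (adjusted p = 2.49e-11). The receptors Tgfbr1 and Tgfbr2 rose by 0.72 and 0.69, and the ligand Tgfb1 went from 116, 118 and 104 to 197, 190.2 and 191 CPM. The inhibitor Smad7, itself a target of the pathway, rose by 1.53 ± 0.15 (adjusted p = 6.75e-09). Smad2, and Nrros, which anchors latent TGF-beta on microglia, did not pass. With length and GC offsets 13 rose and 3 fell, the fallers being Acvrl1, Smad2 and Bmpr2.

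Of 25 genes of the homeostatic microglia list, 9 rose and 6 fell, beside 26.3% and 28.3% of all genes, with a median of 0.14. With the length and GC offsets 12 rose and 6 fell, beside 24.5% and 28% of all genes. With library totals alone, 18 rose and 1 fell, beside the 44.5% and 15.2% of all genes. Sall1, the transcription factor of microglial identity, was at 209, 199 and 208 CPM and then at 469.5, 439 and 496 CPM, a log2 change of 1.19 ± 0.09 (adjusted p = 1.19e-10). In remyelination Sall1 lay above naive by 0.40 on the log2 scale (adjusted p = 0.000636). Adgrg1, an adhesion receptor, changed by 1.37 ± 0.14 (adjusted p = 1.53e-08) and Tmem119 by 0.68 ± 0.14 (adjusted p = 0.000149). P2ry12, the receptor by which microglia sense ADP, did not pass, at 3633, 3421 and 4953 CPM and then 4522, 3934 and 4218 CPM, though it was called higher with the offsets, at 0.58 (adjusted p = 0.000419). Both states lay below the naive values of 10830, 13320 and 12020 CPM, and 19 of the 25 genes were lower than naive in remyelination while 2 were higher.

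Of 14 genes of the miRNA machinery, 10 rose and 2 fell, beside 26.3% and 28.3% of all genes, with a median of 0.46. With the offsets 3 rose and 2 fell, beside 24.5% and 28% of all genes, with a median of 0.15. Without demyelination replicate 3, 1 fell. Dicer1, the ribonuclease that makes mature miRNAs, is intact in Cre- mice. It was at 23.1, 22.7 and 15.2 CPM and then at 33.9, 39.1 and 34.8 CPM, a log2 change of 0.83 ± 0.16 (adjusted p = 0.000136). With the offsets its change was 0.27 and not called (adjusted p = 0.179).

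**Figure D3:**
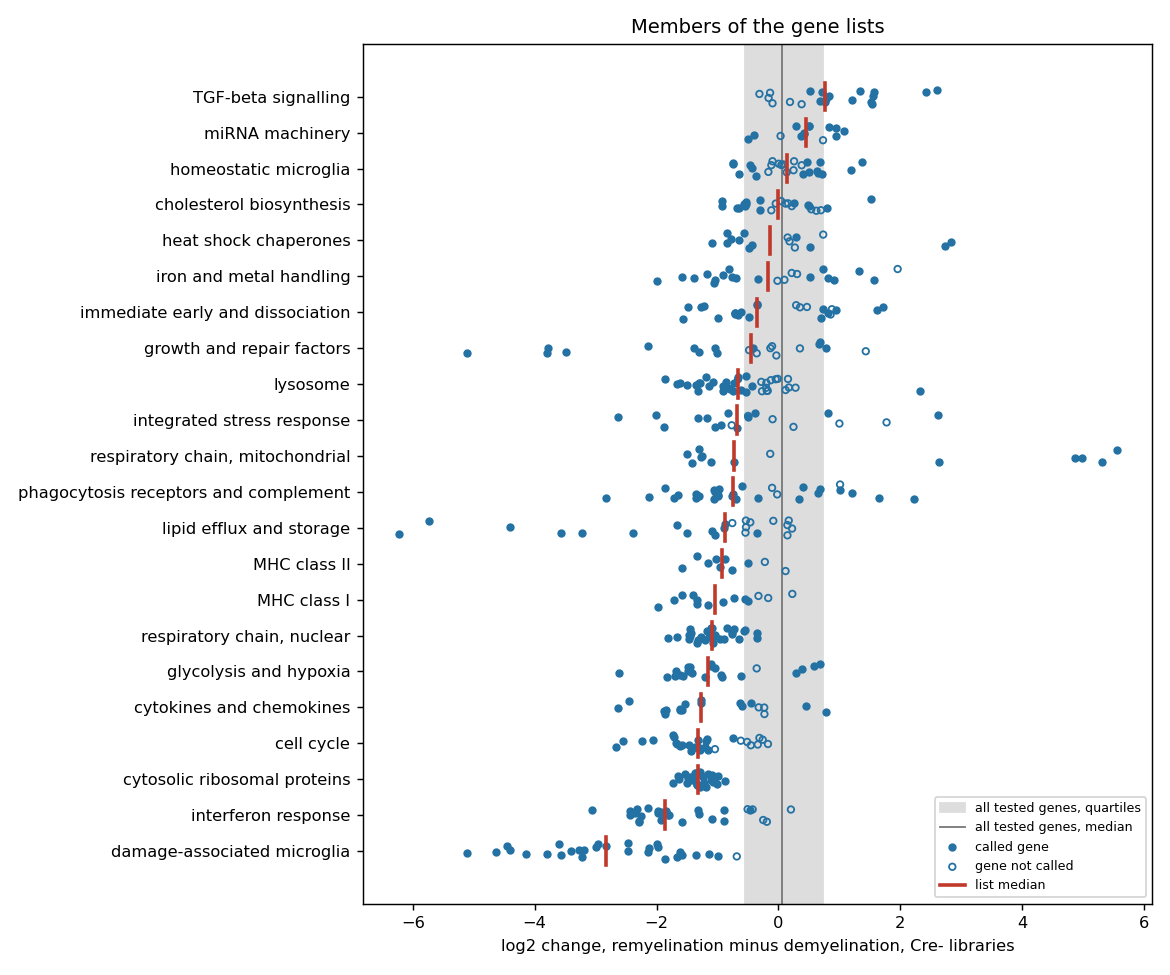
Log2 change of each tested member of the 22 programme lists, remyelination minus demyelination in Cre- libraries. Filled points passed the adjusted p of 0.05, open points did not, red bars are list medians, and the grey band is the range between the quartiles of all tested genes, -0.54 to 0.74. Damage-associated genes lie lowest, with a median of -2.84, and TGF-beta signalling highest, with a median of 0.77.

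Some markers of other cells moved too, among them markers of cells that the CD45-intermediate gate is meant to leave out. The counts of called markers here and below stand beside 26.3% of all tested genes called higher and 28.3% called lower. Border macrophage markers summed to 213.2 to 249.8 CPM in demyelination, 398.3 to 455.2 CPM in remyelination and 22.3 to 31.34 CPM in naive libraries. Of 10 such markers, 6 rose and 2 fell. Mrc1, a mannose receptor, was at 36.9, 35.9 and 54.9 CPM and then at 165, 133 and 174 CPM, a log2 change of 1.89 ± 0.19 (adjusted p = 2.57e-08), and Cd163, a haemoglobin scavenger receptor, changed by 2.21 ± 0.26 (adjusted p = 1.66e-07). Ms4a7 and Siglec1 fell, by 1.06 and 1.03. The share of these cells in the sort was not tested. Border macrophages also express MHC class II genes and Apoe, and the part of these cells in those values was not tested.

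Neutrophil markers summed to 221.2 to 901.2 CPM in demyelination and 553.5 to 4186 CPM in remyelination, the highest value being in remyelination replicate 2. S100a8 was at 64.7, 165 and 241 CPM and then at 169, 1246 and 522 CPM, with overlap between groups, and did not pass (adjusted p = 0.067). Only Mmp9 of the 10 neutrophil markers was called, higher by 2.88, and without remyelination replicate 2 none was called and Mmp9 stood at an adjusted p of 0.0505. With the offsets 5 were called, S100a8 among them (adjusted p = 0.0282), and DESeq2 called 5. Without demyelination replicate 3 and without remyelination replicate 1 the counts were 3 and 4. Astrocyte markers rose in 9 of 11 cases, from a sum of 343.1 to 499.9 CPM to one of 554.8 to 986.3 CPM. The naive sums, 502.7 to 668 CPM, overlapped those of remyelination. Without remyelination replicate 1 the counts were 5 higher and 1 lower. Of 11 oligodendrocyte markers, 8 rose and 1 fell, from sums of 163.3 to 201.1 CPM to 203.3 to 230.5 CPM. The naive sums, 217.9 to 227.8 CPM, lay within the range of remyelination. The number that rose was 5 without demyelination replicate 1, without remyelination replicate 1 or with the offsets, and 4 with only the 6 libraries. The fall was not called without demyelination replicate 2 or 3 or without remyelination replicate 1 or 2. Whether these are transcripts of other cells or fragments taken up was not tested. Of 9 monocyte markers, 1 fell, Fn1, and none rose. Fn1 was not called without demyelination replicate 2 (adjusted p = 0.0536) or with library totals (adjusted p = 0.0603), and 2 markers were called lower without demyelination replicate 1. Ccr2 was at 31.4, 57 and 56.1 CPM and then 43.9, 46.5 and 67.1 CPM.

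Further marker lists were at lower sums or split. Their counts, several of them near or under the background, stand beside 26.3% of all tested genes called higher and 28.3% called lower. Of 10 mural cell markers, 4 rose and 1 fell, from sums of 53.06 to 70.05 CPM to 58.05 to 84.4 CPM. Notch3, a receptor of mural cells, was at 0.11, 0.443 and 0.709 CPM and then at 5.1, 3.82 and 3.02 CPM. Of 11 endothelial markers, 4 rose and 2 fell, and the sum went from 799.6 to 844 CPM to 434.7 to 540.6 CPM, most of it from Bsg, which fell by 0.86. Pecam1, an endothelial adhesion molecule, rose from 6.63, 7.53 and 11.3 to 20.6, 13.9 and 17.9 CPM. Of 8 oligodendrocyte precursor markers, 1 rose, or 0 to 2 when a library was left out, and 1 fell, the latter being Cspg4, which went from 37.8, 46.9 and 33.4 to 10.2, 12.1 and 7.88 CPM. Of 9 neuron markers, 1 rose and none fell by edgeR or DESeq2, with 1 lower at an unadjusted p of 0.05, and the sum did not exceed 11.09 CPM in any of the 6 libraries. Lymphocyte markers summed to at most 9.358 CPM, with 2 of 5 higher and 1 lower. The number higher was 1 without demyelination replicate 1 or 3, without remyelination replicate 3 or with DESeq2, and the number lower was 2 without demyelination replicate 1. Of 5 erythroid markers, 3 rose, and their sum was 28.67 to 76.05 CPM and then 67.69 to 106.3 CPM. None of the 5 was called without demyelination replicate 1, demyelination replicate 2 or remyelination replicate 1, and 1 was called without remyelination replicate 2. The part of these cells in the results above was not tested.

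To relate the change to the cuprizone response without sharing libraries, genes were grouped by their response in Cre+ mice, demyelination minus naive, where 52.2% of tested genes were called. Of 2724 genes raised there by a log2 of at least 1 (15.5% of genes tested), 1462 fell in the Cre- comparison, or 53.7% beside 28.3% of all genes. A further 297 rose and 965 were not called, and the median change was -0.91. Of 1154 genes lowered there (6.56%), 742 rose, or 64.3% beside 26.3%, and 5 fell, with a median of 0.87. The raised genes with the largest response included Gpnmb, Atp6v0d2, a proton pump subunit, and Spp1, which fell here by 3.27, 3.61 and 5.11. Among lowered genes, Col6a3, a collagen, rose from 2.9, 3.1 and 3.88 to 18.8, 15.5 and 19.2 CPM, while Mycl, a transcription factor, did not pass (adjusted p = 0.0971). Of the 2724 raised genes, 920 lay above naive by a log2 of 1 or more after recovery, or 33.8% beside 18.7% of all genes. Without the 3 Cre+ libraries of low Cx3cr1 the sets held 2454 and 1043 genes, of which 62.2% fell and 70.5% rose.

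**Figure D4:**
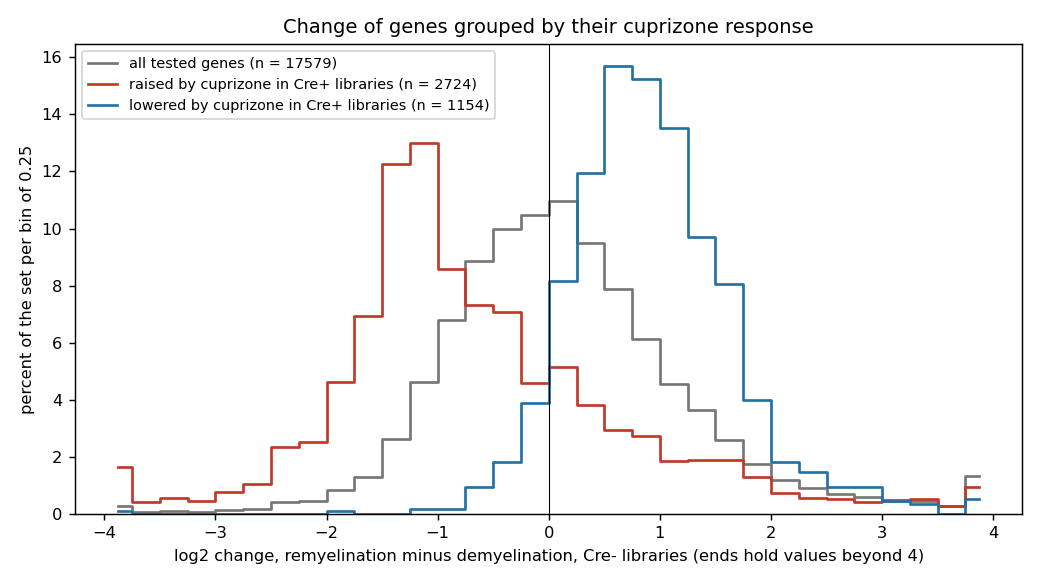
Share of genes per bin of log2 change, remyelination minus demyelination in Cre- libraries, for all 17579 tested genes, the 2724 genes raised and the 1154 genes lowered by cuprizone in Cre+ libraries. The raised set peaks below 0, with a median of -0.91, and the lowered set above 0, with a median of 0.87.

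The same diets in Cre+ mice gave 63.3% of tested genes called, 32.5% higher and 30.8% lower. Of the genes called higher in Cre-, 3908 (84.4%) were called higher in Cre+ and 10 lower, and of those called lower, 4418 (88.7%) were lower and 12 higher. These shares are of the Cre- calls, and of the Cre+ calls they are 68.5% and 81.5%. The interaction test called 657 genes (3.74%), 140 (0.796%) with a higher and 517 (2.94%) with a lower change in Cre+. Of these, 403 fell in both genotypes and fell further in Cre+. Without the 3 Cre+ libraries of low Cx3cr1, 43 genes were called, 33 of them among the 657. The genes with the smallest p that the naming rule took included Cyp27a1, a sterol hydroxylase that fell by 0.46 in Cre- (adjusted p = 0.00178, and 0.465 with the offsets) and changed by 0.83 in Cre+, and Ldha, which changed by -1.70 and -2.59.

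**Figure D5:**
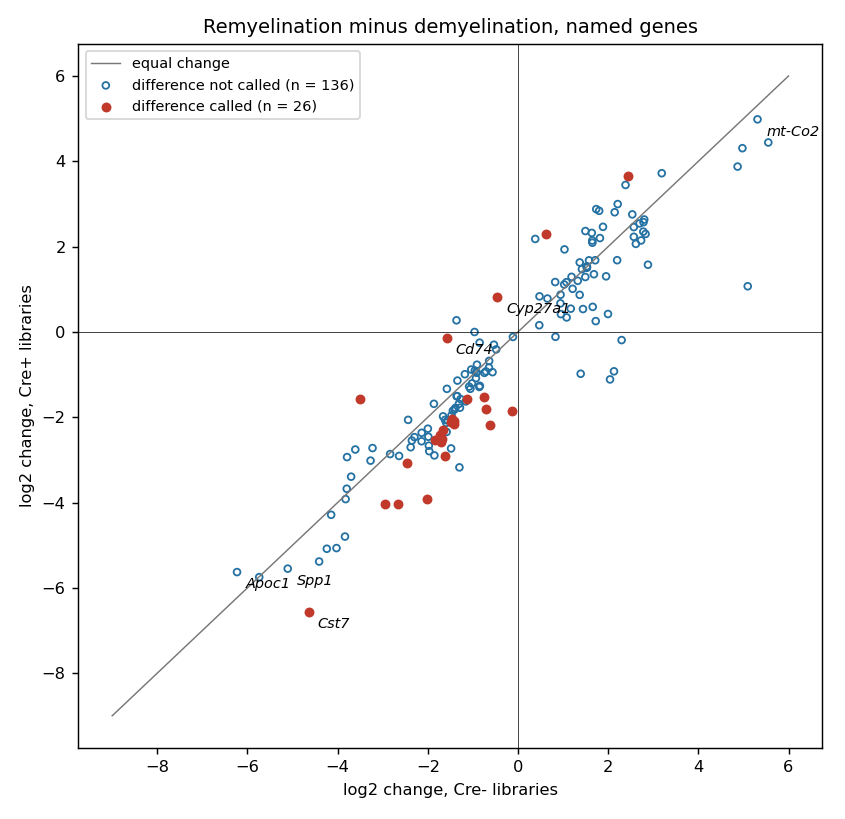
Log2 change of the 162 named genes, remyelination minus demyelination, in Cre- (horizontal) and Cre+ libraries (vertical). Filled points passed the interaction test, and the line marks equal change. Most points lie near the line, and 26 genes passed, among them Cst7, Cd74 and Cyp27a1. The named genes include 5 that were chosen by their p in this test, and 3.74% of all tested genes passed it.

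Tamoxifen timing was compared within Cre- remyelination. With tamoxifen at the peak rather than at the start, no gene (0%) was higher and 96 (0.546%) were lower by edgeR. At an unadjusted p of 0.05, 486 genes were higher, and DESeq2 called 10 higher. These comparisons share the start-tamoxifen libraries. Spp1 was at 17.8, 14.6 and 31.9 CPM in the peak group, a log2 difference of -2.68 (adjusted p = 0.000606). Zfp36, which destabilises cytokine mRNAs, was at 526, 552 and 459 CPM beside 1198, 1962 and 1290 CPM with tamoxifen at the start, a log2 difference of -1.53 (adjusted p = 0.00019). Of the 24 immediate early and dissociation genes, 16 were lower in the peak group. Markers of other cells were lower as well: neutrophil markers summed to 176.5 to 290.1 CPM there, beside 553.5 to 4186 CPM with tamoxifen at the start, with a median difference of -3.27. None of these 10 was called by edgeR, all 10 were lower at an unadjusted p of 0.05 and DESeq2 called 9. Of the monocyte markers 3 of 9 were called lower, and of the border macrophage markers 3 of 10, with sums of 206.8 to 261.9 CPM beside 398.3 to 455.2 CPM for the latter. The part of these cells in the difference between the groups was not tested. Sall1 was at 490.1, 507 and 520.4 CPM and Smad3 at 120.0, 141 and 148 CPM there, and neither differed past the threshold (adjusted p = 0.86 and 0.8).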

How the data were processed

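The submitters' processing notes name Trimmomatic 0.36, STAR 2.5.2b and featureCounts of Subread 1.5.2, and the build GRCm38. The authors deposited raw counts per Ensembl gene. How strand and multimapping reads were handled is not given in the sources used here. Of 49315 identifiers, 49056 matched GENCODE M21 and 259 did not.

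All 24 libraries (8 groups) were fitted with edgeR 4.0.16 in R 4.3.3: filterByExpr (17579 genes, 99.91% of counts), TMM, robust quasi-likelihood F tests, 2-sided, 16 residual degrees of freedom, Benjamini-Hochberg threshold 0.05. The script was tested on simulated data. The members and gene lists were chosen with earlier results of these data known.

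Named genes are the 12 largest rises and falls among called genes whose groups did not overlap and whose mean log2 CPM reached 2, up to 4 members per list by p, Dicer1 and Cx3cr1, 6 per direction of the cuprizone sets, and 5 per further test. Other list members are given as values, and a few are not reported here. The lists comprise 22 programmes and 11 marker lists of other cells. Alternatives were scaling, DESeq2 1.42.0, count filters, length and GC offsets (5 spline degrees of freedom each), fewer libraries, a replicate block and leaving out each replicate. Leaving out the 3 Cre+ libraries with low Cx3cr1 was chosen after seeing the data. Same-numbered libraries did not deviate together (residual r of -0.027, 0.068 and -0.078), so the numbers were not taken as pairs. Depth, 8.87 M to 24.16 M counts, limits low genes.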

Additional observations from a re-analysis of the deposited data

Results flagged for a closer look

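The change on normal diet differed between genotypes for 26 of the 162 named genes, by edgeR's interaction test at an adjusted p of 0.05. Of all tested genes, 3.74% passed. The 162 include 5 genes that were named for their small p in this same test. The count of 26 is therefore partly set by the naming rule and is not comparable with that share. The log2 difference, Cre+ change minus Cre- change, was negative for 21 genes: Cst7 (-1.92), Psat1 (-1.91), Mms22l (-1.74), Plpp1 (-1.55), Cdk1 (-1.36), Ccl12 (-1.30), Cd52 (-1.08), Kpna2 (-1.08), Ldha (-0.89), Pgk1 (-0.83) and H2-Oa (-0.76). The other 10 were Pcna (-0.72), Tpi1 (-0.70), Rps19 (-0.68), Rpl5 (-0.67), Npc2 (-0.64), Aldoa (-0.63), Ndufa2 (-0.63), Cd63 (-0.62), Ndufb8 (-0.59) and Sdhb (-0.45). It was positive for Col6a3 (1.22), Cyp27a1 (1.28), Cd74 (1.44), Mycl (1.66) and Postn (1.93).

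Cst7 fell in both genotypes, by a log2 change of -4.64 in Cre- and -6.56 in Cre+ libraries. Cd74, the MHC class II invariant chain, changed by -1.58 in Cre- and -0.14 in Cre+ libraries, and Postn by -3.49 and -1.56. Without the 3 Cre+ libraries in which Cx3cr1 was low, 4 of the 26 were still called: Plpp1 (-1.04), Ldha (-0.84), Pcna (-0.90) and Cyp27a1 (0.94). The other 22 kept the sign of the difference, and for some its size hardly moved: it was -1.34 for Cdk1 (adjusted p = 0.0729), 1.51 for Cd74 (adjusted p = 0.193), -0.74 for Cd63 and -0.63 for Ndufa2, while that of H2-Oa went to -0.34 and that of Mycl to 0.90. That fit has 1 Cre+ demyelination library, which is assumed to vary like the other groups.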

How the results depend on the processing

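The number of genes called was 9609, and 8499 to 9024 when each of the 6 libraries was left out in turn. It was 9619 with DESeq2 size factors, 9602 with the DESeq2 Wald test, 9243 with length and GC offsets, 9259 with no filter on low counts, 9065 with a stricter filter, 9571 with only the 6 libraries and 9240 with only the 12 Cre- libraries. Library totals without TMM gave 7830 genes higher and 2675 lower, with 4468 and 677 past a log2 of 1, as that scaling moves the median of all genes from 0.06 to 0.48. With it, Mms22l changed by 0.295 (adjusted p = 0.192) and Emilin2 by 0.308 (adjusted p = 0.238), against -0.125 and -0.112. Plac8, at -0.534, changed by 0.082 with length and GC offsets (adjusted p = 0.895) and by 0.105 with these and the replicate block (adjusted p = 0.877). Emilin2 ranged from -0.296 to 0.069 when replicates were left out, the highest being without demyelination replicate 2. Mms22l, Emilin2 and Plac8 were not called in the report's fit or where their sign turned. The interaction between genotypes called 657 genes, and 43 without the 3 Cre+ libraries of low Cx3cr1, which were left out after seeing the data. A replicate block called 9392 genes, 9328 of them shared, and the pairing check gave no sign that the numbers pair the libraries. Of the 162 named genes, 144 stayed on the same side of the threshold with the length and GC offsets and 145 with library totals. Low-count genes are limited by the 8.87 M to 10.65 M counts of the remyelination libraries.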

Other observations

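Genes that the lists did not hold showed further changes. F5, which encodes coagulation factor V, stood at 0.877, 2.49 and 2.08 CPM in demyelination and at 13.7, 18 and 6.54 CPM in remyelination, a log2 change of 2.80 ± 0.70 (adjusted p = 0.00245). Kl (Klotho) and the bicarbonate transporter Slc4a4 rose by 2.78 and 2.70, and Fgfr3, a receptor for fibroblast growth factors, by 2.57. Kl was at 1.97, 4.87 and 6.24 CPM and then at 46.4, 33 and 11.6 CPM (adjusted p = 0.0338), a call that was lost with the offsets (adjusted p = 0.0582), with a replicate block (adjusted p = 0.0707) and without any 1 of 5 of the 6 libraries, and remyelination replicate 1 had the highest value of Kl, Slc4a4 and Fgfr3 in its group. The same library had the highest level of the astrocyte genes Slc1a2, Gja1 and Aqp4, and whether the 2 patterns share a source was not tested.

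Rab7b, a GTPase of late endosomes, fell from 153, 155 and 127 to 10.2, 12.4 and 10.9 CPM, a log2 change of -3.70 ± 0.20 (adjusted p = 1.44e-12). Klrb1b, an inhibitory lectin receptor, went from 18.1, 18.8 and 11.6 to 0.687, 1.25 and 1.01 CPM, and its relative Klrb1c from 3.62, 3.99 and 2.88 to 0, 0.0889 and 0.419 CPM. Fabp3, a fatty acid binding protein, and Cox6a2, a subunit of cytochrome oxidase known from muscle, fell by 3.84 and 3.82. Among genes that cuprizone lowered in Cre+ mice, Gpr165 stood at 12.4, 12.6 and 25.5 CPM in demyelination and at 62, 35.6 and 79.1 CPM in remyelination, below the naive values of 84.3, 127 and 145 CPM.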
